A study of Mus musculus with 12 samples.

Results

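The 10 genes described here are used as marks of radial glia and of neural progenitor cells: Slc1a3, Fabp7, Nes, Vim, Prom1, Sox2, Pax6, Notch1, Hes1 and Hes5. They were chosen by name and matched by symbol to the Ensembl identifiers of the deposited tables, which gave 10 of the 33560 genes with counts, and all 10 were among the 15443 genes that passed the filter on low counts. The samples were 12 poly(A) RNA libraries of mouse glutamatergic neurons, differentiated in culture out of embryonic stem cells and collected on day 21. The study set neurons that lack a microexon of the formin gene Daam1 (KO, labelled Daam1-MIC_KO) beside wild-type neurons (WT), each with and without Y-27632, an inhibitor of the kinase ROCK. The design text of the series speaks of hippocampus from adult mice, whereas every sample is labelled as cultured neurons, and these sample labels were used.

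The 4 groups held 3 libraries each. WT vehicle and KO vehicle neurons received water for 2 h, and WT inhibitor and KO inhibitor neurons received 10 µM Y-27632 for the same time. Each of 6 labelled cell lines, WT lines 1 to 3 and KO lines 1 to 3, gave 1 vehicle and 1 inhibitor library. The labels do not say whether the lines are separate clones or whether the cultures were grown on separate occasions, so p-values measure only the spread between these libraries. WT line 1 and KO line 1 share a number and nothing else that the labels give.

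Radial glia are the stem cells of the developing brain, which line the ventricles, divide there and give rise first to neurons and later to glia. They are held in the progenitor state by Notch signalling: a ligand on a neighbouring cell leads to cleavage of the Notch receptor, whose freed intracellular part binds the DNA-binding protein RBPJ and switches on Hes genes. Hes proteins are transcriptional repressors that bind short sites called N-boxes and E-boxes and keep genes for neuronal differentiation off, and the set is turned down as a cell becomes a neuron. Several of the 10 genes are not exclusive to progenitors: Slc1a3, Fabp7, Vim and Hes1 are also used by astrocytes, and Vim by fibroblasts and other mesenchymal cells.

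Since Notch signalling acts through RBPJ and Hes proteins, 4 promoters that differ in their content of the short motifs of these proteins are printed. The sequences are RefSeq promoters of mouse build GRCm38.p6, each 200 bases from 250 to 51 bases before the annotated start, on the strand of the gene and 5′ to 3′. Of the 10 genes, 9 had an entry, and Hes1 had none. Capitals mark the RBPJ core TGGGAA and the N-box CACNAG, each searched on both strands, and no marked motif overlapped another. The windows lie at chr15:8710858-8711057 on the minus strand (Slc1a3), chr10:57784673-57784872 on the plus strand (Fabp7), chr3:34649745-34649944 on the plus strand (Sox2) and chr4:154960673-154960872 on the plus strand (Hes5).
Slc1a3: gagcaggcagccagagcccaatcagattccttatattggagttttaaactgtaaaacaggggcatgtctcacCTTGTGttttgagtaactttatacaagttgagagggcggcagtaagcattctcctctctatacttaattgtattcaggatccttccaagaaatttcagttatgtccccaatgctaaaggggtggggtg
Fabp7: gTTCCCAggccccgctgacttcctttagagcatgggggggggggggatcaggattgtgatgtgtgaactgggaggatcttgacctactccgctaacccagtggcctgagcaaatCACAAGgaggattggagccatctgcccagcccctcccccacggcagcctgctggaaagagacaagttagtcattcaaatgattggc
Sox2: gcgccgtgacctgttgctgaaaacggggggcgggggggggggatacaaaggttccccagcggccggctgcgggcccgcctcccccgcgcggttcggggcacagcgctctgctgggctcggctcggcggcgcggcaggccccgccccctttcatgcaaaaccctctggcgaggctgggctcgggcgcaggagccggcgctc
Hes5: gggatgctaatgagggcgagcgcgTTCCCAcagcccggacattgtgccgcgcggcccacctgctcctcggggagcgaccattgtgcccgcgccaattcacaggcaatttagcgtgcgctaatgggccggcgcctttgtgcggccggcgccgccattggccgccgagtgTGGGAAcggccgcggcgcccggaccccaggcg

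The Hes5 window held the RBPJ core at 2 places, 226 to 221 bases before the start as TTCCCA and 82 to 77 bases before it as TGGGAA. Fabp7 held 1 RBPJ core, 249 to 244 bases before the start, and 1 N-box from 136 to 131. The Slc1a3 window held an N-box at 178 to 173 bases and no RBPJ core, and the Sox2 window, the richest of the 4 in G and C at 76.0%, held neither. Among the 9 genes with an entry the RBPJ core was present in the window at the first annotated start of Fabp7, Prom1 and Hes5. It occurred in 17.9% and the N-box in 31.1% of 32851 promoter windows of the same length, so both are common letters. These matches describe sequence and do not show binding.

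Library totals ran from 23253566 to 35012561 counts. The KO inhibitor library of line 3 stood apart from the other 11, and 2 WT libraries, vehicle line 2 and inhibitor line 3, stood apart from the remaining 9. The summed level of 8 neuron markers was 2476 to 3873 CPM (counts divided by the TMM-scaled library size) in the 11 libraries and 800.2 CPM in KO inhibitor line 3. The glutamatergic label was met by Slc17a6, a vesicular glutamate transporter, at 242 to 424 CPM in 11 libraries and 51.7 CPM in KO inhibitor line 3, while Slc17a7, the transporter of mature cortical neurons, lay at 0.599 to 2.04 CPM in the 12. The sum of 8 cell cycle markers was 681.6 CPM in KO inhibitor line 3, 370.7 CPM in WT vehicle line 2, 280.4 CPM in WT inhibitor line 3 and 12.6 to 140.8 CPM in the other 9. The sum of 9 mesenchymal markers was 1219 and 793 CPM in those WT libraries, 115 to 395 CPM in the other WT libraries and 35.3 to 124 CPM in the KO libraries. The sum of 6 oligodendrocyte lineage markers was 551.7 CPM in KO inhibitor line 3, most of it Pdgfra at 508.9 CPM, and 21.7 to 169 CPM in the other 11, with Sox10 at 0 in those 11. The sum of 6 endothelial and microglial markers was 19.6 CPM in KO inhibitor line 3 and 2.05 to 12.3 CPM in the others, with endothelial Cldn5 at 0 in the 12. The sum of 6 pluripotency markers was 176.9 CPM in KO inhibitor line 3. It was 63.7 CPM in WT vehicle line 2, 64.1 CPM in WT inhibitor line 3 and 20.6 to 33.3 CPM in the other 9. Of the 4 tested, 3 were the highest of the 12 in KO inhibitor line 3 (38.4% of all genes tested) and 1 was the lowest. Fewer cells of a type and less RNA per cell cannot be told apart in bulk RNA.

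**Figure D1:**
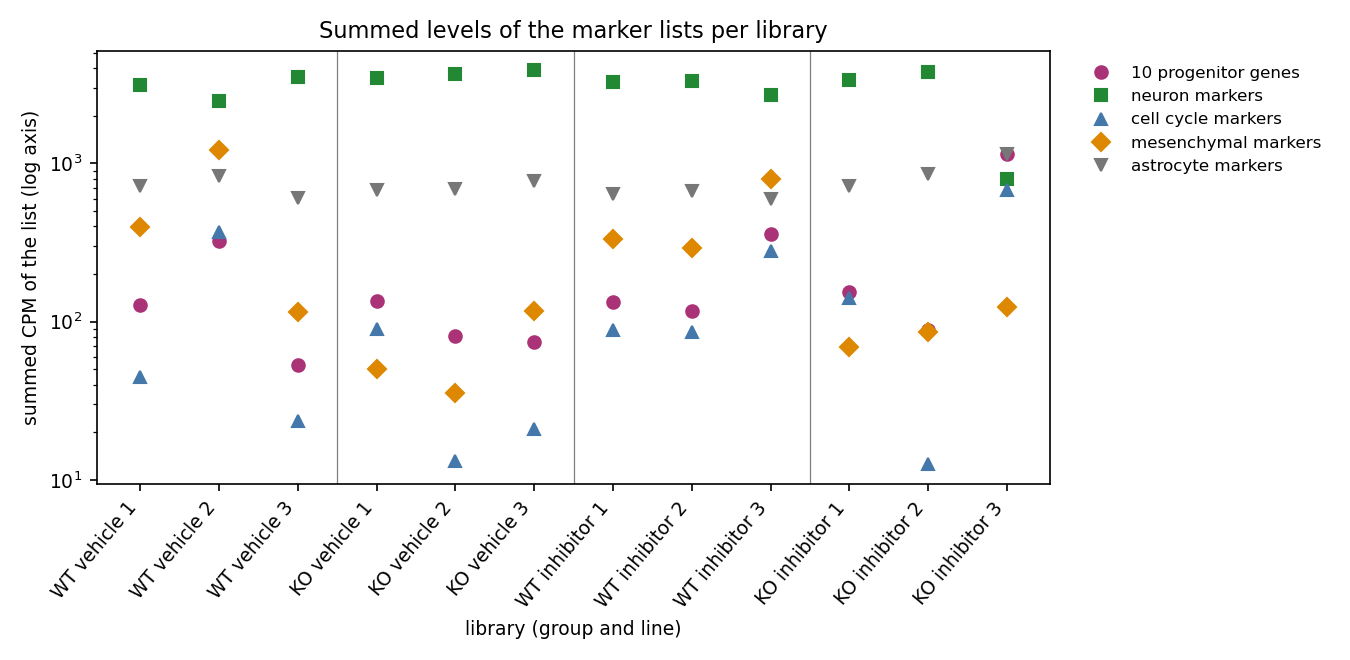
Summed CPM of the 10 progenitor genes and of 4 marker lists (vertical log axis) in each of the 12 libraries (horizontal axis, by group and line number), 1 point per list and library. KO inhibitor line 3 holds the highest progenitor sum (1144 CPM) and the lowest neuron sum (800.2 CPM), and the mesenchymal sum is highest in WT vehicle line 2 (1219 CPM).

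In 11 of the 12 libraries the 10 genes were minor transcripts. Together they took 0.00544% to 0.0355% of all counts there, and 0.122% in KO inhibitor line 3. Per unit of gene length, as the deposited cRPKM (reads per unit of gene length and of sequencing depth, with the authors' correction), Vim and Fabp7 led in every group. In WT vehicle neurons Vim stood at 48.5 cRPKM (13.9 to 99.4 over 3 lines) and Fabp7 at 26.5 cRPKM (11.5 to 36.5). Slc1a3 (4.29), Hes1 (3.53), Nes (1.66), Hes5 (1.25), Sox2 (0.867), Notch1 (0.460), Pax6 (0.447) and Prom1 (0.253 cRPKM) followed. Among neighbours in that order, the lines of Fabp7 and Slc1a3 and those of Pax6 and Prom1 did not overlap, and those of the other neighbours did. In KO vehicle neurons Fabp7 (27.4) stood before Vim (20.0 cRPKM), with lines that overlapped. In KO inhibitor line 3 the order began with Vim at 286, Fabp7 at 246, Slc1a3 at 70.3, Hes1 at 26.5 and Sox2 at 10.9 cRPKM, and Prom1 was last there too at 1.65 cRPKM.

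Slc1a3 and Fabp7 serve the metabolism of the radial fibre. Slc1a3 (chromosome 15, 8634124 to 8710764, minus strand) encodes the glutamate transporter GLAST, which clears glutamate from around radial glia and astrocytes. In vehicle it was at 15.7, 31.8 and 5.87 CPM in WT lines 1 to 3 and at 23.4, 17.4 and 15.0 CPM in KO lines 1 to 3. In inhibitor it was at 17.4, 14.8 and 28.2 CPM in the WT lines and at 23.6, 20.1 and 272 CPM in the KO lines. The KO libraries lay inside the WT range in vehicle, and in inhibitor KO lines 1 and 2 again lay inside it while line 3 was 8.56-fold above the highest of the other 11 libraries. Fabp7 (chromosome 10, 57784881 to 57788450, plus strand) encodes the brain lipid-binding protein, a carrier of fatty acids in radial glia. Its vehicle levels were 26.9, 24.6 and 8.52 CPM in WT and 25.0, 23.5 and 14.7 CPM in KO lines 1 to 3. Its inhibitor levels were 18.3, 16.5 and 22.9 CPM in WT and 21.2, 21.1 and 174.5 CPM in KO lines 1 to 3. Without KO inhibitor line 3, Fabp7 kept within a 3.16-fold range over 11 libraries, with WT vehicle line 3 the lowest, as for Slc1a3.

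Nes, Vim and Prom1 build or mark the cell body and its membrane. Nes (chromosome 3, 87971078 to 87980451, plus strand) encodes nestin, an intermediate filament of dividing progenitors. Nestin RNA in vehicle was at 5.47, 20.8 and 3.00 CPM in WT and 5.93, 3.94 and 4.04 CPM in KO lines 1 to 3, and in inhibitor at 6.90, 4.87 and 11.5 CPM in WT and 6.12, 5.72 and 29.4 CPM in KO lines. WT vehicle line 2 was high, and KO inhibitor line 3 exceeded it by only 1.42-fold. Vim (chromosome 2, 13573927 to 13582826, plus strand) encodes vimentin, the filament that nestin assembles with. Vimentin RNA in vehicle was at 67.6, 219.8 and 29.2 CPM in WT and 68.6, 30.3 and 32.7 CPM in KO lines 1 to 3, and in inhibitor at 79.2, 69.7 and 265.7 CPM in WT and 90.3, 34.8 and 577.8 CPM in KO lines. WT vehicle line 2 and WT inhibitor line 3 were both 2.43-fold or more above the highest of the other 9 libraries. Prom1 (chromosome 5, 43993620 to 44102032, minus strand) encodes prominin, the CD133 antigen of apical membrane protrusions. Prom1 in vehicle was at 1.07, 1.09 and 0.620 CPM in WT and 0.695, 0.519 and 0.667 CPM in KO lines, and in inhibitor at 0.821, 0.749 and 1.45 CPM in WT and 0.937, 0.636 and 5.66 CPM in KO lines. Its groups overlapped, and it was thinly counted, with 12 to 44 counts in 11 libraries and 178 in KO inhibitor line 3.

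Sox2 and Pax6 are transcription factors, as are Hes1 and Hes5, which are described with Notch1. Sox2 (chromosome 3, 34650405 to 34652461, plus strand), which maintains the stem cell state, was at 2.27, 2.10 and 0.783 CPM in WT vehicle and 2.23, 1.73 and 1.61 CPM in KO vehicle lines 1 to 3. Sox2 in inhibitor was at 1.64, 1.50 and 2.64 CPM in WT and 1.59, 1.85 and 20.4 CPM in KO lines. Its 11 other libraries held 24 to 80 counts and KO inhibitor line 3 held 641. Sox2 lies within the longer transcript Sox2ot on the same strand, which was counted at 0.384 to 1.59 CPM, so a split of reads between both is uncertain. Pax6 (chromosome 2, 105668900 to 105697364, plus strand), a paired-box factor of cortical radial glia, was at 1.31, 0.934 and 1.14 CPM in WT vehicle and 1.32, 0.865 and 0.941 CPM in KO vehicle lines. Pax6 in inhibitor was at 1.12, 1.42 and 1.39 CPM in WT and 0.750, 0.867 and 9.25 CPM in KO lines. In inhibitor, KO lines 1 and 2 were therefore the lowest and line 3 the highest of the 6 libraries.

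Notch1, Hes1 and Hes5 are a receptor and 2 of its targets. Notch1 (chromosome 2, 26457903 to 26516663, minus strand) was at 2.10, 9.69 and 1.37 CPM in WT vehicle and 3.33, 0.562 and 1.53 CPM in KO vehicle lines 1 to 3. Notch1 in inhibitor was at 3.61, 2.58 and 11.4 CPM in WT and 4.66, 1.33 and 17.1 CPM in KO lines. It had the widest range of the 10 genes over 11 libraries, 20.3-fold, and the high libraries were WT vehicle line 2 and WT inhibitor line 3. On the opposite strand it overlaps 0610009E02Rik at 0.227 to 1.09 CPM, and use of strand in the counting is not stated. Hes1 (chromosome 16, 30064384 to 30067796, plus strand) was at 2.99, 10.6 and 1.63 CPM in WT vehicle and 2.93, 1.08 and 1.33 CPM in KO vehicle lines. Hes1 in inhibitor was at 3.35, 3.78 and 10.5 CPM in WT and 4.09, 0.723 and 35.3 CPM in KO lines. The same WT libraries were high as for Notch1, and KO inhibitor held both the lowest and the highest value of the 12. Hes5 (chromosome 4, 154960923 to 154962371, plus strand) was the steadiest, at 1.75, 1.64 and 1.18 CPM in WT vehicle and 1.65, 1.60 and 1.53 CPM in KO vehicle lines. Hes5 in inhibitor was at 1.15, 1.39 and 1.52 CPM in WT and 1.03, 1.27 and 2.80 CPM in KO lines, a 1.70-fold range over 11 libraries.

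**Figure D2:**
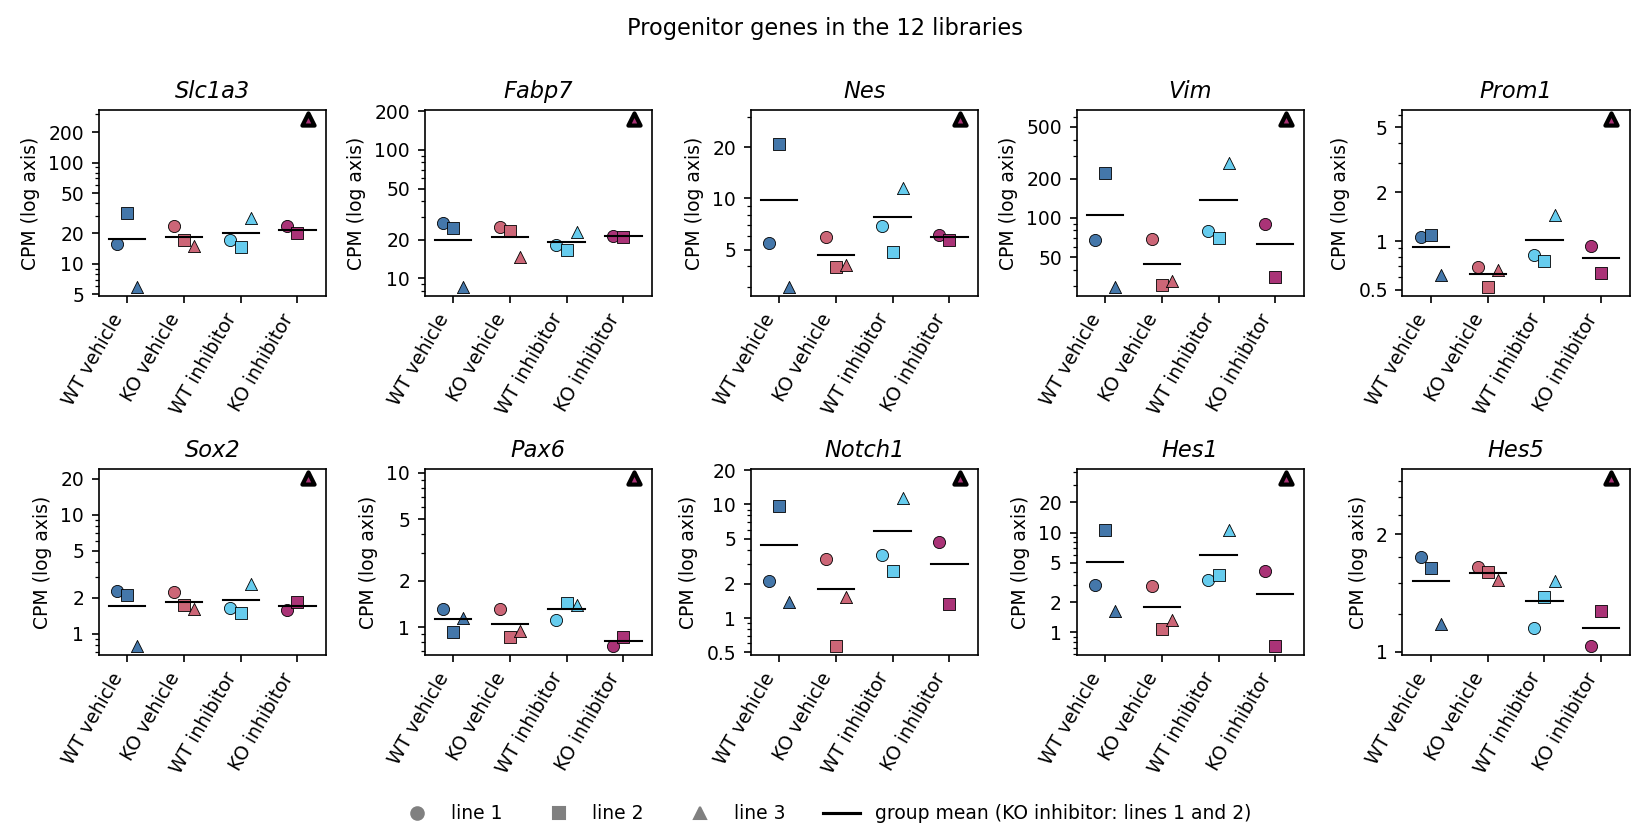
CPM of each progenitor gene (vertical log axis) in the 4 groups (horizontal axis), with 1 symbol per library, its shape giving the line number, and bars at group means, for KO inhibitor over lines 1 and 2. KO inhibitor line 3, drawn with a heavy outline, is highest in all 10 panels, from 2.80 CPM for Hes5 to 577.8 CPM for Vim.

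Within their groups the 10 genes varied more between lines than most genes did. The within-group SD of log2 CPM over 11 libraries had a median of 0.64 over the 10 genes, from 0.21 for Hes5 to 1.26 for Notch1, against 0.20 over all genes tested. The ratio of the highest to the lowest of the 11 libraries had a median of 4.39 over the 10 genes and 1.61 over all genes tested. With KO inhibitor line 3 included, the median SD was 1.08 against 0.38.

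The library of KO inhibitor line 3 carried the highest level of the 12 for 10 of 10 genes, which held for 38.4% of all genes tested. It was over 2-fold above the highest of the other 11 for 7 of the 10, against 11% of all genes tested: Slc1a3 (8.56-fold), Sox2 (7.71-fold), Pax6 (6.50-fold), Fabp7 (6.48-fold), Prom1 (3.89-fold), Hes1 (3.33-fold) and Vim (2.18-fold). Hes5 (1.59-fold), Notch1 (1.50-fold) and Nes (1.42-fold) were nearer to the next library. The vehicle library of the same line did not share this excess, and the inhibitor library exceeded it 26.5-fold for Hes1, 18.2-fold for Slc1a3, 17.7-fold for Vim and 1.83-fold for Hes5. In the same library 8 of 8 cell cycle markers were the highest of the 12. Of the 8 tested astrocyte markers 6 were the highest, among them Gfap at 598 CPM against 40.5 to 185 CPM, and 2 were the lowest. Of the 8 neuron markers 6 were the lowest and 1 was the highest. The share of all genes that were lowest there was not counted. Mesenchymal markers were highest there in 0 of 9. This is 1 library, and the part of these other cell types in the levels of the progenitor genes was not tested.

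A different subset was high in WT vehicle line 2 and WT inhibitor line 3. Both exceeded the highest of the other 9 libraries, KO inhibitor line 3 left aside, for 6 of the 10 genes, against 24.1% of all genes tested. The lower of both was 2.58-fold above for Hes1, 2.43-fold for Vim, 2.08-fold for Notch1, 1.67-fold for Nes, 1.19-fold for Slc1a3 and 1.02-fold for Prom1. For Sox2, Hes5, Fabp7 and Pax6 the ratio was below 1, at 0.926, 0.866, 0.850 and 0.657. In these libraries 8 of 8 cell cycle and 8 of 9 mesenchymal markers also exceeded the other 9, and 0 of 8 neuron markers did. The part of those cell types in the levels of the 6 genes was not tested.

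**Figure D3:**
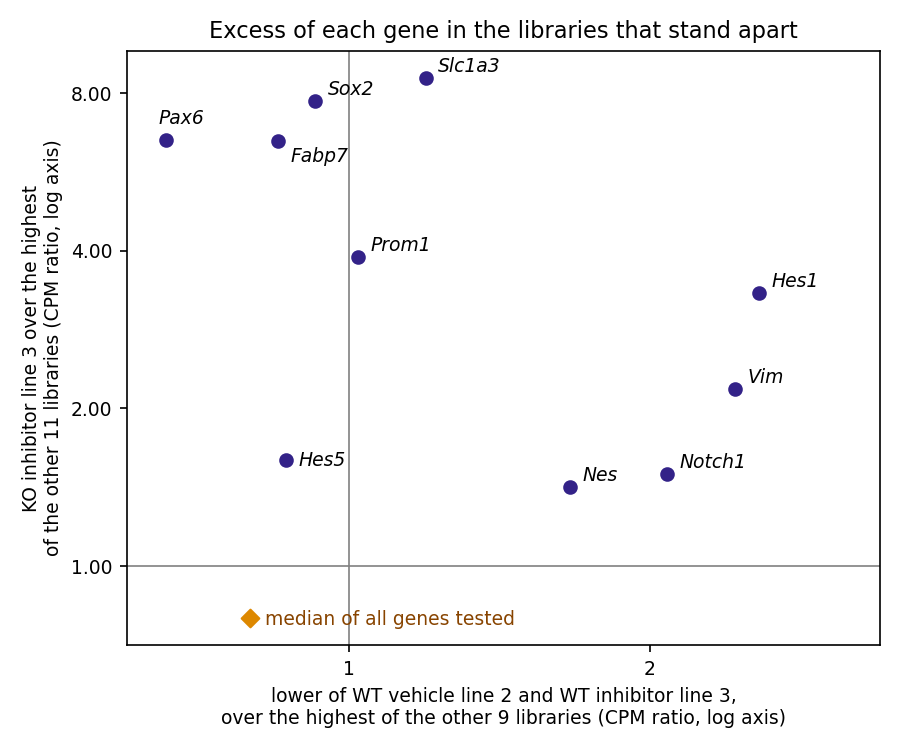
Each point is a gene, with the lower of WT vehicle line 2 and WT inhibitor line 3 over the highest of the other 9 libraries on the horizontal log axis and KO inhibitor line 3 over the highest of the other 11 on the vertical log axis (ratios of CPM). Hes1 and Vim exceed 2-fold on both axes, Notch1 does so on the horizontal axis only, and Sox2, Pax6 and Fabp7 stand above 6-fold on the vertical axis and below 1 on the horizontal.

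The first comparison set KO against WT neurons in vehicle and asks what the microexon deletion alone changed. Hes1, Notch1, Vim and Nes had the lower means in KO, and the difference rested on WT vehicle line 2. No progenitor gene passed the test (0 of 10, as for 0% of the 15443 genes; edgeR quasi-likelihood test with Benjamini-Hochberg adjustment, adjusted p = 0.999 for each of the 10). An unadjusted p below 0.05 was reached by 0 of 10 in edgeR, where 0.557% of all genes were higher and 1.43% lower, and by 0 of 7 in DESeq2, where 0.980% were higher and 2.28% lower. DESeq2 gave no p for Fabp7, Pax6 and Sox2 in the fit of 12 libraries, so its counts are of 7 genes in each comparison but the line sums. After adjustment it called 0 of 7, against 0.0718% of all genes. The log2 fold change was -1.51 ± 1.20 (± SE) for Hes1, -1.27 ± 1.08 for Notch1, -1.27 ± 1.05 for Vim, -1.07 ± 0.80 for Nes and -0.55 ± 0.74 for Prom1. Without WT vehicle line 2 it was -0.38 for Hes1, 0.055 for Notch1, -0.15 for Vim and 0.13 for Nes. Sox2 (0.11), Fabp7 (0.074), Hes5 (0.066), Slc1a3 (0.065) and Pax6 (-0.11) lay near 0 beside SEs of 0.36 to 0.93. The median of the 10 was -0.33, with 4 positive and 6 negative, and that of all genes tested -0.0100. In none of the 10 were the KO and WT vehicle libraries apart, either way, where 7.63% of all genes had KO libraries wholly above and 4.90% wholly below. In this comparison 9 of 9 mesenchymal markers were negative in edgeR (median of -3.09). Of these, 8 were lower at an unadjusted p below 0.05 and 0 passed, and DESeq2 called 1. The part of mesenchymal cells in the lower means of progenitor genes was not tested.

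The same difference in the presence of the inhibitor was positive in 10 of 10 genes, and 8 of them turned negative without KO line 3. The fold change on the log2 scale was 2.39 ± 0.97 for Slc1a3 (unadjusted p = 0.034), 2.04 ± 0.90 for Sox2 (unadjusted p = 0.046) and 1.91 ± 0.79 for Fabp7 (unadjusted p = 0.036). After adjustment 0 of 10 passed (0% of all genes; edgeR adjusted p = 0.856 for these 3). The 3 genes below an unadjusted 0.05 compare with 1.32% of all genes that were higher at that level, and DESeq2, which gave no p for Fabp7 (1.97 ± 0.75), Sox2 (2.11 ± 0.86) and Pax6, placed 1 of 7, Slc1a3, there beside 3.45% of all genes. It called 0 of 7 after adjustment, against 0.118% of all genes. Without KO inhibitor line 3 the median over the 10 genes went from 1.22 to -0.37, beside -0.049 over all genes in that fit, and 2 genes remained positive, Fabp7 at 0.14 and Slc1a3 at 0.12. In that fit Hes1 was at -1.29, Vim at -1.14 and Notch1 at -0.97, and with WT inhibitor line 3 and WT vehicle line 2 also left out the median of the 10 was 0.0081. With only KO inhibitor line 3 left out, Pax6 had the smallest unadjusted p of the 10, at -0.69 ± 0.29 (unadjusted p = 0.037, edgeR adjusted p = 0.515, and 0.474 to 0.998 over its alternatives). In that fit 4.52% of all genes were lower at an unadjusted p below 0.05 and 0% passed. Its KO lines 1 and 2 (0.750 and 0.867 CPM) lay below all 3 WT lines (1.12 to 1.42 CPM), a separation found in 19.6% of all genes with these 5 libraries. Pax6 held 24 to 42 counts in these 5 libraries.

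The response to the inhibitor within KO neurons uses the same 3 KO inhibitor libraries. Here too 10 of 10 genes were positive and 0 of 10 passed (0% of all genes; edgeR adjusted p = 0.474 for 9 genes and 0.872 for Hes5). The genes with an unadjusted p below 0.05 were 5, Hes1 at 2.90 ± 1.25, Slc1a3 at 2.50 ± 0.98, Sox2 at 2.09 ± 0.90, Prom1 at 1.93 ± 0.74 and Fabp7 at 1.78 ± 0.78, where 6% of all genes were higher at that level. DESeq2 placed 6 of its 7 there, Slc1a3, Hes1, Prom1, Nes, Vim and Notch1, beside 12.8% of all genes, and called 0 of 7 after adjustment, as for 0% of all genes. With the line as a replicate block, since the vehicle and inhibitor libraries come from the same lines, edgeR gave 0 of 10 below an unadjusted 0.05. Of all 15443 genes, 48 were higher and 208 lower at that level in the block fit. Hes1 was at 1.35 ± 1.38 and Slc1a3 at 1.28 ± 1.10 there. Without KO inhibitor line 3 the median fell from 2.01 to 0.28 with 0 of the 10 genes at that level in edgeR (0.372% of all genes higher and 0.783% lower) and 0 called, and Sox2 (-0.11), Pax6 (-0.36) and Hes5 (-0.46) became negative. Within KO line 1 the inhibitor library was 1.01-fold the vehicle library for Slc1a3, 1.32-fold for Vim and 1.40-fold for Hes1, and within KO line 2 it was 1.16-fold, 1.15-fold and 0.668-fold. Hes5 in KO lines 1 and 2 with inhibitor (1.03 and 1.27 CPM) lay below the 3 KO vehicle lines (1.53 to 1.65 CPM), as did 8.41% of all genes, with a log2 fold change of -0.46.

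**Figure D4:**
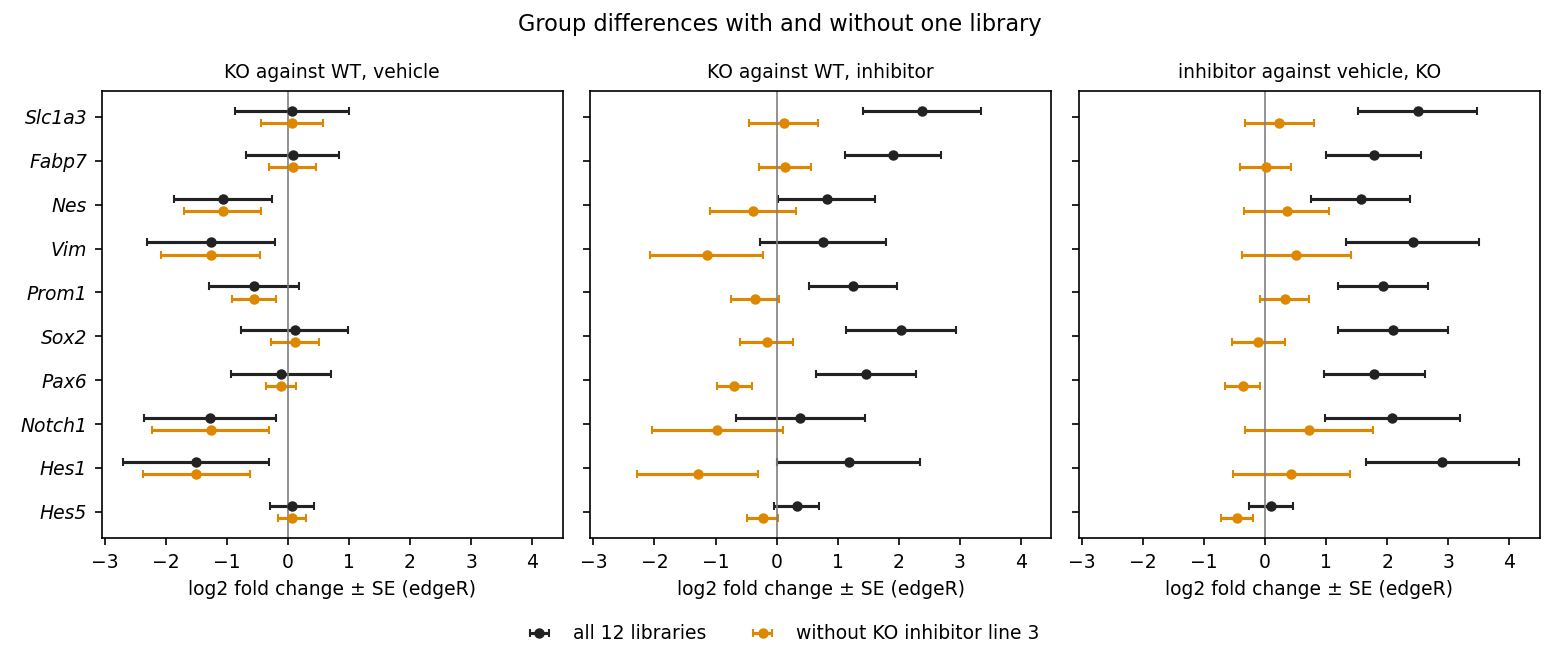
Log2 fold change with its SE (horizontal axis, edgeR) of each gene (vertical axis) in 3 comparisons, with all 12 libraries (black) and without KO inhibitor line 3 (orange). In the middle and right panels the black points lie at positive values, up to 2.90 for Hes1, and the orange points lie between -1.29 and 0.72.

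In WT neurons the inhibitor left no progenitor gene past the test, 0 of 10 beside 0% of all genes (edgeR adjusted p = 1.00), and 0 of 10 at an unadjusted p below 0.05 in edgeR (0.168% of all genes higher, 0.136% lower) or DESeq2 (0 of 7, with 0.131% higher and 0.300% lower). Fold changes on the log2 scale ran from -0.33 for Nes to 0.42 for Notch1 with a median of 0.17, beside 0.011 over all genes. This rests on lines that went opposite ways. Vim in inhibitor was 1.17-fold the vehicle level in WT line 1, 0.317-fold in line 2 and 9.09-fold in line 3, and Hes1 was 1.12-fold, 0.356-fold and 6.46-fold. Slc1a3 (1.11-fold, 0.466-fold and 4.80-fold), Nes (1.26-fold, 0.234-fold and 3.83-fold) and Notch1 (1.72-fold, 0.266-fold and 8.34-fold) had the same order of lines. Without WT vehicle line 2 the log2 fold change was 1.48 for Vim, 1.72 for Notch1 and 1.32 for Hes1, and without WT inhibitor line 3 it was -0.50, -0.50 and -0.51. In 0 of 10 genes were the WT inhibitor and vehicle libraries apart, where 3.04% of all genes were wholly above and 2.93% wholly below.

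The interaction, which asks whether KO and WT neurons responded differently to the inhibitor, passed in 0 of 10 genes (0% of all genes; edgeR adjusted p of 0.808 to 0.851), with 0 at an unadjusted p below 0.05 in edgeR (0.641% of all genes higher, 0.557% lower) or DESeq2 (0 of 7, with 2.72% higher and 0.594% lower). Its median on the log2 scale was 1.87 with all libraries and 0.094 without KO inhibitor line 3. When both libraries of a line were summed and 3 KO lines set against 3 WT lines, 0 of 10 passed (0% of 16090 genes; edgeR adjusted p of 0.998 for each) and 0 reached an unadjusted 0.05 (0.982% of all genes higher, 1.67% lower). DESeq2 placed Slc1a3 and Fabp7 below that level with 2.17% of all genes, and called 0 of 10 against 0.543%. The median was 0.69, and -0.42 when KO line 3 was represented by its vehicle library alone. In that last fit Nes (-0.78), Vim (-1.31) and Hes1 (-1.49) were lower in KO at an unadjusted p below 0.05, as were 12% of all genes, and passed in 0 of 10 against 0.181%, with edgeR adjusted p of 0.188 to 0.211, and 0.188 to 1.00 over the alternatives for these 3. In the same fit 8 of 9 mesenchymal markers were lower in KO at an unadjusted p below 0.05 (median of -2.73), and 8 of 8 cell cycle markers were negative (median of -1.52) with 0 of 8 at that level, and the part of those markers' cells in the lower levels was not tested.

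The 10 genes did not move as 1 block. Over the 11 libraries without KO inhibitor line 3, Pearson's r of log2 CPM ran from -0.15 to 0.96 over the 45 pairs, with a median of 0.53. Vim, Hes1 and Notch1 were the most alike (Vim with Hes1 0.96, Vim with Notch1 0.95, Hes1 with Notch1 0.93), and Nes and Prom1 joined Vim at 0.90 and 0.91. Fabp7, Sox2 and Slc1a3 were alike in another way (Fabp7 with Sox2 0.91, Slc1a3 with Sox2 0.86, Slc1a3 with Fabp7 0.85), and across these sets r ran from 0.31 for Fabp7 with Notch1 to 0.79 for Slc1a3 with Nes, which lies within the range of the first set (0.745 to 0.957). The Notch targets Hes1 and Hes5 had an r of 0.14, and Notch1 and Hes5 one of 0.00. With all 12 libraries the median r was 0.81 and with the 9 that exclude the libraries standing apart it was 0.42, where Fabp7 with Sox2 (0.95) and Vim with Hes1 (0.90) stayed high. Nes with Hes1 went from 0.79 over 11 libraries to 0.46 over the 9. Over the 9, Nes was at 0.79 with Vim and 0.80 with Slc1a3. These are descriptions over few libraries that share lines and scaling factors, and the low counts of Pax6, Prom1, Sox2 and Hes5 add counting noise.

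**Figure D5:**
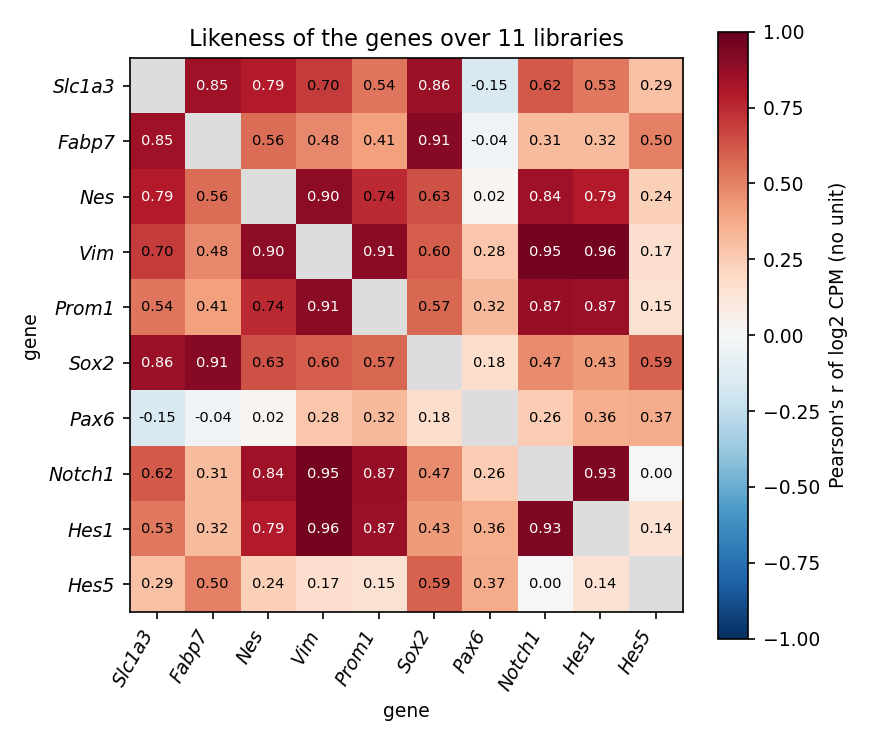
Pearson's r of log2 CPM (colour scale and printed value) for each pair of the 10 genes, named on both axes, over 11 libraries without KO inhibitor line 3. Vim, Hes1 and Notch1 form the darkest block (0.93 to 0.96), while Pax6 and Hes5 are pale against most genes.

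The genes most like each of the 10 were sought among 11091 genes with a mean of at least 5 CPM over all 12 libraries. Their r was taken over the same 11 libraries, without KO inhibitor line 3. Slc1a3 was nearest to Mlc1 (r of 0.951), an astrocyte membrane protein, and to Impa2 (0.948) and 1500009L16Rik (0.935). Near to Sox2 were Aldh1l1 (0.914), a folate enzyme used as an astrocyte marker, and Rpl13a (0.907). Fabp7 was nearest to Pfdn5 (0.931), Wdr5 (0.910) and again Aldh1l1 (0.905). Nes was nearest to Smo (0.977), the Hedgehog signal transducer, Cdt1 (0.966), which licenses DNA replication, and Plpp3 (0.964), and Prom1 to Hopx (0.969), a homeodomain protein of radial glia, Foxp1 (0.957) and Cpt1a (0.945). Vim was nearest to Scarf2 (0.993), Siva1 (0.992) and Ripk1 (0.991), Hes1 to Rhoc (0.996), Serpinb6b (0.995) and Erbb2 (0.995), and Notch1 to Nfkb2 (0.987), Arid5b (0.984) and Tent5a (0.983). The nearest genes of Pax6, Pomgnt1 (0.863), Wdr73 (0.861) and Mri1 (0.855), and of Hes5, Fbxo10 (0.844), Pdgfa (0.821) and Decr2 (0.818), were less close. The 11 libraries include WT vehicle line 2 and WT inhibitor line 3. Both exceeded the other 9 for Hes1, Vim, Notch1 and Nes, and for 24.1% of all genes. The part of these libraries in the values of r was not tested, and each r is among the highest of 11091.

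Other genes of the Notch pathway were taken from a list of 30 that held receptors, ligands, processing enzymes, RBPJ with its co-activators and further targets. None of the 30 passed in any of the 6 comparisons in edgeR or DESeq2, higher or lower. At an unadjusted p below 0.05, edgeR placed 1 lower in KO against WT vehicle (1.43% of all genes), 3 lower in inhibitor (2.18%) and 4 higher in the inhibitor response of KO neurons (6%). DESeq2 placed 1 (2.28% of all genes), 2 (2.20%) and 7 (12.8%) there. Without KO inhibitor line 3 edgeR placed 0 higher in that response. In KO against WT vehicle 10 were positive and 20 negative with a median of -0.13, and the gene with the smallest unadjusted p was Heyl, a Hairy-related repressor downstream of Notch. Heyl was at 0.413, 1.17 and 0.424 CPM in WT and 0.146, 0.0865 and 0.0784 CPM in KO vehicle lines 1 to 3, with only 2 to 4 counts in the KO libraries, so that its fitted fold depends on the prior count. In inhibitor it was at 0.690, 0.486 and 0.892 CPM in WT and 0.219, 0.347 and 0.127 CPM in KO lines, so the KO lines lay below the WT lines under both treatments, as did 4.90% of all genes in vehicle and 7.02% in inhibitor. The log2 fold change was -2.62 ± 0.58 in vehicle (unadjusted p = 0.0011, edgeR adjusted p = 0.999), -1.56 ± 0.52 in inhibitor (unadjusted p = 0.013, adjusted p = 0.856) and -1.89 ± 0.36 over line sums (unadjusted p = 0.0022, adjusted p = 0.555). Heyl did not share the excess of KO inhibitor line 3, which was the lowest of its 6 inhibitor libraries. Over the list of 30, that library was the highest of 12 for 16 genes (38.4% of all genes tested) and over 2-fold above the others for 5 (11%). It was the lowest for 8, a count without its share over all genes. Rbpj itself, which partners the Notch intracellular part, lay at 33.8 to 45.4 CPM in 11 libraries and 61.1 CPM in KO inhibitor line 3. Dll1, a ligand, lay at 7.71 to 10.2 CPM in the 12.

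A further 20 progenitor genes gave 0 calls in the 6 comparisons in edgeR and DESeq2, which had no p for Id3 over line sums. In the inhibitor response of KO neurons 15 of the 20 were positive with a median of 1.07, and 5 were higher at an unadjusted p below 0.05 in edgeR (6% of all genes) and 7 in DESeq2 (12.8%). Without KO inhibitor line 3, 12 were positive with a median of 0.13, and 0 were higher at that level in edgeR. KO inhibitor line 3 was the highest of 12 libraries for 13 of the 20 (38.4% of all genes tested) and over 2-fold above for 8 (11%). It was the lowest for 4, a count without its share over all genes. Sox1, a relative of Sox2, was at 0.131 to 0.392 CPM in 11 libraries and 4.23 CPM in KO inhibitor line 3, with a log2 fold change of 2.73 ± 0.98 in KO against WT inhibitor (unadjusted p = 0.0197, edgeR adjusted p = 0.856) and 0.32 without that library. Ptprz1, a receptor phosphatase of radial glia, was at 30.1, 32.9 and 25.2 CPM in WT and 33.6, 42.0 and 65.8 CPM in KO inhibitor lines. Its log2 fold change was 0.68 ± 0.25 (unadjusted p = 0.022, edgeR adjusted p = 0.856), and 0.36 without KO line 3. The 3 KO lines lay above all WT lines, as they did for 3.53% of all genes. Id3, an inhibitor of bHLH factors, and the transcription factor Sox9 were among the 3 genes of this list with the smallest p in the inhibitor response of KO neurons. Their log2 fold changes were 4.73 ± 1.77 for Id3 (unadjusted p = 0.023, edgeR adjusted p = 0.474) and 1.97 ± 0.75 for Sox9 (unadjusted p = 0.025, edgeR adjusted p = 0.474). Id3 was at 0.768, 0.216 and 0.118 CPM in KO vehicle and 0.437, 0.376 and 29.0 CPM in KO inhibitor lines 1 to 3, so line 3 alone was high, and without it the log2 fold change was 0.13. Sox9 likewise held 1007 counts in KO inhibitor line 3 and 77 to 159 counts (2.51 to 5.88 CPM) in the other 11, with a log2 fold change of 0.25 without it. Tnc, the matrix protein tenascin, was at 8.32, 32.6 and 4.96 CPM in WT and 2.31, 2.55 and 7.29 CPM in KO vehicle lines, with groups that overlapped and a log2 fold change of -1.92 ± 0.76 (unadjusted p = 0.031, edgeR adjusted p = 0.999).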

How the data were processed

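The authors deposited, for each of the 12 libraries, a table of 36902 Ensembl genes with whole-number read counts and cRPKM values, an RPKM (reads per unit of gene length and of sequencing depth) with a correction that no label describes. Reads were placed on build mm10, per the submitters' processing notes, and libraries were poly(A)-selected and stranded, per the labels' protocols; the aligner, annotation and use of strand are not given in the sources used here. Of the genes listed, 3342 were NA in each library, and 33371 of the remaining 33560 matched a symbol. Coordinates are from GENCODE M21 (GRCm38).

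The deposited counts were tested with edgeR 4.0.16 in R 4.3.3 (TMM factors of 0.970 to 1.06, filterByExpr by group, quasi-likelihood test) in 1 fit of 12 libraries and 4 group coefficients over 15443 genes, with KO inhibitor line 3 kept and every comparison repeated without it. Line sums (16090 genes) were fitted separately. Benjamini-Hochberg adjustment ran over all genes tested, with a threshold of 0.05. The biological coefficient of variation was 0.411 (0.360 for line sums). The SE of a fold change is its size divided by the square root of F. On simulated counts of the vehicle comparison (15443 genes), the fit called 30%, 76%, 88% and 98% of 50 genes each changed by 1, 2, 3 and 4 on the log2 scale, with 5 false calls. On line sums (16090 genes) it called 24%, 76%, 80% and 92%, with 13 false calls. The simulation had no library standing apart, and its changed genes were drawn at random above a mean of 1 CPM. The 10 genes varied more (median within-group SD of log2 CPM of 1.08 against 0.38), so these rates need not hold for them. DESeq2 1.42.0, other scalings, no filter, a replicate block and each library left out were the alternatives.

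Groups came from sample labels. The vehicle and inhibitor libraries of a line are paired by the labelled cell line, but their deviations from group means correlated at 0.41, -0.55 and -0.72 in WT and -0.19, 0.57 and -0.37 in KO lines 1 to 3. Besides the 10 genes, which are always named, list genes were named by the smallest unadjusted p below 0.05, at most 3 per comparison, and neighbours by the 3 highest r; some genes that this rule takes are not reported here. The genes, lists and tests were chosen with earlier results of these data known.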

Additional observations from a re-analysis of the deposited data

How the results depend on the processing

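Over the 60 member values (10 genes in 6 comparisons), 937 of 1030 alternative fits kept the direction and 93 turned it, and 0 gave an adjusted p below 0.05, the smallest being 0.164 (15 had no adjusted p, those of Fabp7, Pax6 and Sox2 in DESeq2). Part of the 937 could hardly turn, since a left-out library need not belong to the comparison. Without KO inhibitor line 3, for example, Nes in KO against WT vehicle stayed at -1.07. The 937 is therefore no measure of how firm the directions are. The number of all genes called, 0 in each comparison with edgeR, was 11, 18 and 87 with DESeq2 in KO against WT vehicle, inhibitor and line sums, 2 for line sums without the filter, 29 for line sums without the inhibitor library of KO line 3, and 2, 1 and 2 in vehicle, inhibitor and line sums without the 3 libraries that stand apart. The last 2 settings were chosen after seeing the data. It was 0 to 0 with 1 library left out of the fit of 12, or 1 whole line out of the line sums. The cause was not tested. The median r of 0.813 over pairs of the 10 genes became 0.528 without KO inhibitor line 3 and 0.420 without the 3 libraries.

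With a replicate block, which paired the libraries of a line or of a number, 0 genes were called in the 6 comparisons, and 0 of the 10 reached an unadjusted p below 0.05 in any of them. Few genes of any kind did. Of 15443 genes, 225 did so in KO against WT vehicle and 441 in KO against WT inhibitor. In the WT inhibitor response, the KO inhibitor response and the interaction 28, 256 and 167 did so, and in line sums 259 of 16090. Log2 fold changes that turned sign were Slc1a3 -0.016 in KO against WT vehicle, Fabp7 0.073 and Nes 0.096 in the WT inhibitor response, Hes5 -0.043 in the KO inhibitor response, Vim -0.20, Notch1 -0.35 and Hes1 -0.23 in line sums. Between WT and KO the lines share only a number: the deviations of lines 1 to 3 from their group means correlated at -0.35, -0.65 and 0.17 in vehicle and 0.38, 0.65 and 0.79 in inhibitor.

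Without the 3 libraries that stand apart, the log2 fold changes that turned sign were Nes 0.14 and Notch1 0.062 in KO against WT vehicle. In KO against WT inhibitor they were Vim -0.22, Pax6 -0.60, Notch1 -0.022, Hes1 -0.54 and Hes5 -0.093. In the WT inhibitor response they were Nes 0.46 and Prom1 -0.12. In the KO inhibitor response they were Sox2 -0.091, Pax6 -0.35 and Hes5 -0.45. In the interaction they were Slc1a3 -0.31, Nes -0.086, Vim -0.078, Sox2 -0.12, Pax6 -0.37, Notch1 -0.084, Hes1 -0.17 and Hes5 -0.22. In line sums they were Vim -0.22, Prom1 -0.14, Pax6 -0.40, Notch1 -0.033 and Hes1 -0.55. Line sums without the inhibitor library of KO line 3 turned Nes -0.78, Vim -1.31, Prom1 -0.46, Sox2 -0.031, Pax6 -0.37, Notch1 -1.20, Hes1 -1.49 and Hes5 -0.015.

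With 1 library left out at a time (1 line for line sums), the log2 fold changes that turned sign in at least 1 fit are given by their lowest and highest values. In KO against WT vehicle the range was -0.35 to 0.78 for Slc1a3, -0.29 to 0.35 for Fabp7, -1.50 to 0.13 for Nes, -0.23 to 0.37 for Sox2, -0.32 to 0.0053 for Pax6, -2.06 to 0.055 for Notch1 and -0.089 to 0.18 for Hes5. In KO against WT inhibitor the range was -0.39 to 1.22 for Nes, -1.14 to 1.65 for Vim, -0.36 to 1.70 for Prom1, -0.16 to 2.52 for Sox2, -0.69 to 1.94 for Pax6, -0.97 to 1.31 for Notch1, -1.29 to 1.90 for Hes1 and -0.23 to 0.58 for Hes5. In the WT inhibitor response the range was -0.24 to 0.87 for Slc1a3, -0.42 to 0.22 for Fabp7, -0.76 to 0.84 for Nes, -0.50 to 1.48 for Vim, -0.23 to 0.30 for Prom1, -0.18 to 0.42 for Sox2, -0.50 to 1.72 for Notch1 and -0.51 to 1.32 for Hes1. In the KO inhibitor response the range was -0.11 to 2.57 for Sox2, -0.36 to 2.26 for Pax6 and -0.46 to 0.35 for Hes5. In the interaction the range was -0.28 to 2.40 for Sox2, -0.58 to 2.05 for Pax6 and -0.29 to 0.52 for Hes5. In line sums the range was -0.64 to 0.55 for Nes, -1.08 to 0.79 for Vim, -0.43 to 1.16 for Prom1, -0.36 to 1.44 for Pax6, -0.996 to 0.50 for Notch1, -1.29 to 1.14 for Hes1 and -0.061 to 0.37 for Hes5.

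Depth limits Pax6, Prom1, Sox2 and Hes5 most, which had the lowest median counts of the 10, and 3 lines per genotype limit every comparison. The tables do not separate change per cell from change in the mix of cells.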
